A study of Mus musculus with 4 samples.

Results

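The genes described here are those of the miR-199 and miR-214 microRNAs, Mir199a-1, Mir199a-2, Mir199b and Mir214, and Dnm3os, the long non-coding RNA that hosts Mir199a-2 and Mir214. They were taken by gene ID from a table of 2976 genes, of which 643 are miRNA precursor genes, and all 5 had a row. The table covers 1 group of 4 libraries, so it gives levels within 1 cell population and no comparison between conditions. Each library is small RNA from flow-sorted peri-wolffian duct stroma, the mesenchyme beside the tube that sends out the ureteric bud, of CD1 mouse embryos at stage E10.5. The embryos were wild type apart from the alleles Tbx18-Cre and CAG-tdTomato, which all 4 libraries share. The Tbx18 promoter drives Cre, and the reporter then marks in red the cells in which Cre has acted and their descendants, so a marked cell need not have been making Tbx18 when it was collected. Nothing in the labels ties the 4 libraries to separate embryos or pools, and each SD and p-value therefore describes the spread of these libraries, which could be technical.

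In mammals each gene of the dynamin family carries a miR-199 gene on its opposite strand. The Dnm3 locus also carries miR-214, and there both hairpins lie in the long RNA Dnm3os, whose processing releases them. In mouse, Twist1, a transcription factor of mesenchyme, is known to drive Dnm3os, and miR-199 and miR-214 are known from the mesenchyme of limb, skull and heart and from fibroblasts in fibrosis. A hairpin is cut into a 5p and a 3p strand, and the seed, bases 2 to 8 of a mature strand, largely sets which messenger RNAs it pairs with.

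The mature strands are shown because their sharing decides which genes the reads can be told apart between. They are RefSeq sequences of GRCm38.p6, written 5′ to 3′, with the seed in capitals.
miR-199a-5p: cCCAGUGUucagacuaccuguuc
miR-199a-3p and miR-199b-3p: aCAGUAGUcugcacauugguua
miR-214-5p: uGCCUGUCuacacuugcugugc
miR-214-3p: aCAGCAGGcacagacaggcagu
Among 1005 mouse hairpins searched, the 23 nt of miR-199a-5p were found in 2, Mir199a-1 and Mir199a-2. The 22 nt of the miR-199 3p strand were found in 3, those of Mir199a-1, Mir199a-2 and Mir199b. Each miR-214 strand was found in the Mir214 hairpin alone. Reads of the 3p strand therefore cannot be told apart between the 3 miR-199 genes, and how they were divided is not stated in any source used. No miRNA outside these genes shares either miR-199 seed. The miR-214-3p seed is shared with miR-761, whose gene Mir761 was listed at 0 in all 4 libraries.

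The hairpins follow, with the 5p and 3p stretches in capitals.
Mir199a-1: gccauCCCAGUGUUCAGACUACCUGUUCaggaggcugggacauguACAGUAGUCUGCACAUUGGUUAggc
Mir199a-2: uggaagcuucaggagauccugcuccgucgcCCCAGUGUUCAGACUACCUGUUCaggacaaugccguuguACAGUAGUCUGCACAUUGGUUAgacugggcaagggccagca
Mir199b: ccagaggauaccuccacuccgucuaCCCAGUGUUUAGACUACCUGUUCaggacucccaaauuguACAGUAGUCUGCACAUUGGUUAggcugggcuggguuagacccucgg
Mir214: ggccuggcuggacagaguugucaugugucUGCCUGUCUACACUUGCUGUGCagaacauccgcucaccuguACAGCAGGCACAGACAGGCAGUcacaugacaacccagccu
In the Mir199b hairpin the stretch that matches miR-199a-5p differs from it by C10U, counted from 1 at the 5′ end of the strand with the base of miR-199a-5p first. That position is outside the seed. Over whole hairpins, 63 of the 70 bases of Mir199a-1 aligned to identical bases in Mir199a-2 and as many in Mir199b.

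The genes lie at 3 dynamin loci of GRCm38. Mir199a-1 (gene ID 387194) is at chr9:21496495-21496564 on the minus strand, opposite to Dnm2 and in one of its introns. Mir199b (gene ID 387239) is at chr2:32318460-32318569 on the plus strand, opposite to Dnm1 and likewise in an intron. Mir199a-2 (gene ID 723821) at chr1:162217814-162217923 and Mir214 (gene ID 387210) at chr1:162223368-162223477 are on the plus strand, opposite to Dnm3. Both lie inside the exon of Dnm3os (gene ID 474332), which RefSeq places at chr1:162217623-162225550. Mir199a-2 starts 191 nt and Mir214 5745 nt after the start of the 7928 nt Dnm3os gene, with 5444 nt between the hairpins. Neither Mir199a-1 nor Mir199b overlapped an exon of another gene or another miRNA row.

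The values are TPM, that is reads per nt of gene brought to a common total of 1000000, and the reads behind them were recovered from the values, with 146255 to 1087240 reads on miRNA genes per library. Library 4 was the shallowest. The table's columns sum to 2.33% to 7.22% of that total, and a TPM also moves with what genes outside the table took. For this reason levels are given in TPM and as a share of the summed miRNA TPM of the library. Markers of other cells were examined as lists of miRNAs. The mesenchyme and smooth muscle list, with 15 of 16 members found in the table by symbol, summed to 446 to 3159 TPM. Mir497a was not found by that symbol, and a row named Mir497, at 0.221 to 1.99 TPM, was not counted. The epithelium list (10 of 10 in the table) summed to 57.2 to 196 TPM, the blood list (7 of 8) to 4.51 to 21.1 TPM, and the neural list (11 of 11) to 258 to 3365 TPM, highest in library 3. The striated muscle list (6 of 6) summed to 122 to 342 TPM, and Mir126a, the one endothelial marker of 2 with a row, ranged from 251 to 528 TPM. The members at 1 TPM or more in every library were 10 of 15 for mesenchyme and 8 of 10 for epithelium. They were 3 of 11 for neural, 2 of 6 for striated muscle and 0 of 7 for blood, and Mir126a was too. Of all 643 miRNA genes, 33.1% reached this. Markers listed at 0 were Mir21a, Mir22, Mir24-1 and Mir24-2 for mesenchyme, Mir223 and Mir486 for blood, Mir124a-1 for neurons and Mir1a-2 for muscle. Mir21a, Mir22, Mir223 and Mir124a-1 overlap an annotated exon of another gene, and the rest overlap another miRNA row. Whether reads were set aside there was not tested, so these zeros do not show that the miRNAs were absent. In such bulk libraries, fewer cells of a type and less RNA per cell cannot be told apart.

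Mir199a-1 carried most of the reads assigned to these genes. Its level was 1093, 1114, 736 and 112 TPM in libraries 1 to 4, or 19567, 16029, 9876 and 848 reads. Libraries 1 and 2 lay close together, library 3 was lower and library 4 was far below the rest. The mean was 764 ± 468 TPM (SD, n = 4), with a 9.91-fold range, and its place among miRNA genes was 11, 13, 15 and 35 in libraries 1 to 4. Leaving library 4 out brought the mean to 981 TPM.

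Mir199b stood lower, and library 4 was its lowest too. Its level was 234, 141, 119 and 15.3 TPM in libraries 1 to 4, from 6589, 3194, 2511 and 182 reads. Library 1 was the highest, unlike for Mir199a-1, whose TPM was slightly higher in library 2. The mean was 127 ± 89.9 TPM (SD, n = 4), a 15.3-fold range, and its places were 45, 60, 68 and 101.

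**Figure D1:**
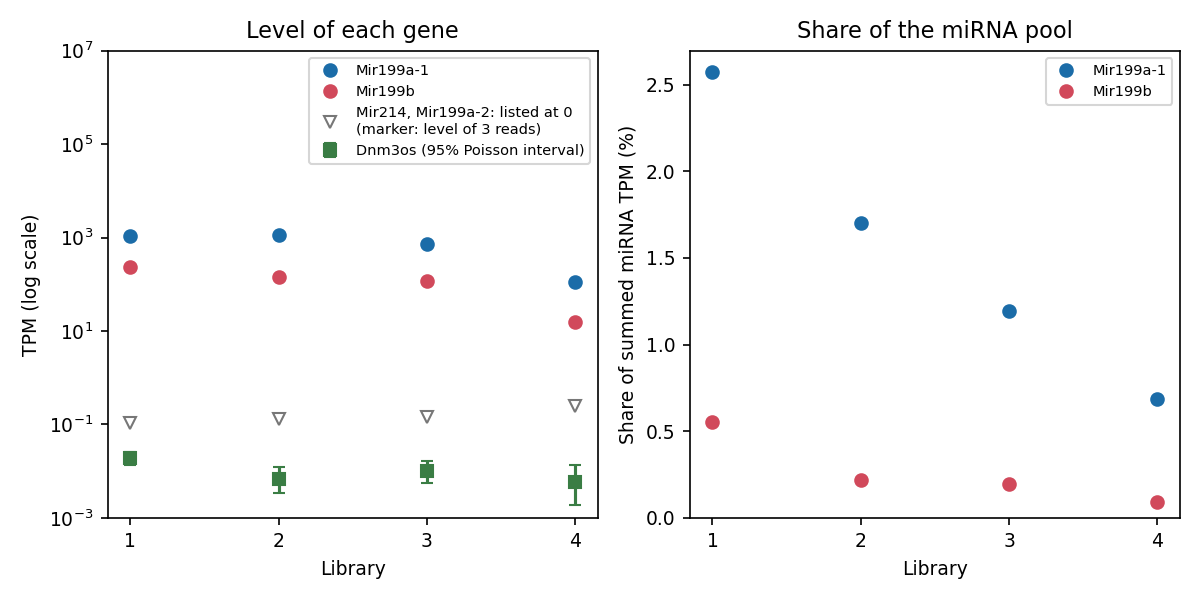
The left panel shows TPM on a log axis for each gene in libraries 1 to 4, with exact 95% Poisson intervals for Dnm3os and, for the genes listed at 0, an open triangle at the level of 3 reads. The right panel shows the share of the summed miRNA TPM, which for Mir199a-1 was 2.57% in library 1 and 0.685% in library 4.

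Part of this range belonged to the scale of the libraries. As a share of the summed miRNA TPM, Mir199a-1 took 2.57%, 1.70%, 1.19% and 0.685% in libraries 1 to 4, and Mir199b took 0.551%, 0.216%, 0.193% and 0.0936%. In shares both were highest in library 1, which for Mir199a-1 was not so in TPM, and both stayed lowest in library 4, while the range shrank to 3.75-fold for Mir199a-1 and to 5.89-fold for Mir199b. Of the 170 miRNA genes with a mean of at least 10 TPM, 82.4% had their lowest TPM in library 4, while 26.5% had their lowest share there. A share that was highest in library 1 and lowest in library 4 occurred in 14.7% of the 170. The coefficient of variation in TPM was 61.2% for Mir199a-1 and 70.5% for Mir199b, against a median of 58.8% over the 170 genes, and 98 and 129 of them varied less. In shares it was 52.3% for Mir199a-1 and 75.6% for Mir199b, against a median of 37.6%.

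Other miRNAs moved over the same libraries. The mesenchyme and smooth muscle list took 7.29%, 4.82%, 4.39% and 2.72% of the miRNA sum in libraries 1 to 4, also highest in library 1 and lowest in library 4. Its highest genes did not all run this way. Mir125b-1 fell from 1432 TPM in library 1 to 79.5 TPM in library 4. Mir100 was highest in library 3, at 1357 TPM, and Mir143 in library 2, at 1081 TPM. Shares of single list members were not computed. Endothelial Mir126a took 0.659%, 0.666%, 0.856% and 1.53%, and was highest in library 4. The striated muscle list took 0.805%, 0.198%, 0.198% and 1.37%, and the epithelium list 0.224%, 0.138%, 0.318% and 0.349%, both highest in library 4. The blood list took 0.0225%, 0.00696%, 0.0341% and 0.0275%, and the neural list 1.41%, 0.737%, 5.45% and 1.57%, both highest in library 3. The part of these cells in the spread of the miR-199 genes was not tested.

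The balance between the 2 miR-199 genes with reads varied little compared with their levels. Mir199a-1 made up 82.4%, 88.7%, 86.1% and 88.0% of their summed TPM in libraries 1 to 4, so Mir199a-1 was the higher gene in each. On log2(TPM + 1), Mir199a-1 exceeded Mir199b by 2.65 ± 0.32 (SD, n = 4), in 4 of 4 libraries, with p = 0.125 by an exact permutation test that flips signs (two-sided). This is the smallest p that 4 libraries allow, and it became 0.344 when adjusted (Benjamini-Hochberg) over the 11 ratios computed, so no ratio here could pass 0.05. Its hairpin has 70 nt and that of Mir199b 110 nt, and dividing by length favours the shorter one. In reads Mir199a-1 exceeded Mir199b 2.97-fold, 5.02-fold, 3.93-fold and 4.66-fold in libraries 1 to 4. Together the 2 genes held 2.96%, 1.77%, 1.27% and 0.704% of the miRNA reads. Reads of the shared 3p strand, and for Mir199a-1 any from Mir199a-2, are in these values to an unknown extent.

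Mir199a-2 and Mir214 were listed at 0 in all 4 libraries. For a hairpin of 110 nt, a count of 0 allows up to 0.107, 0.133, 0.142 and 0.253 TPM in libraries 1 to 4, taking 3 reads as the limit, which covers counting error only. Of the 4 miRNA genes, 2 were at 1 TPM or more in every library, where 33.1% of all 643 miRNA genes were, and 2 were listed at 0 throughout, where 31.6% were. The 2 listed at 0 are the 2 that lie in the exon of Dnm3os.

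Dnm3os itself had reads in every library, at a TPM far below that of Mir199a-1. These are small RNA libraries, so the few reads need not measure the level of the full long transcript. Dnm3os was listed at 0.0192, 0.00675, 0.00987 and 0.00585 TPM in libraries 1 to 4. These values are exactly 39, 11, 15 and 5 reads over a length of 7928 nt, which is the full gene and includes both hairpins. The exact 95% Poisson intervals were 27.7 to 53.3, 5.49 to 19.7, 8.40 to 24.7 and 1.62 to 11.7 reads, and cover counting error only. Per 1000000 miRNA reads this came to 44.2, 10.1, 15.3 and 34.2. Library 1 was the highest on both scales, while library 4 was the lowest in TPM but the second highest per miRNA read. The mean was 0.0104 ± 0.00612 TPM (SD, n = 4), or 0.00749 TPM without library 1. For each Dnm3os read there were 502, 1457, 658 and 170 reads of Mir199a-1 in libraries 1 to 4.

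**Figure D2:**
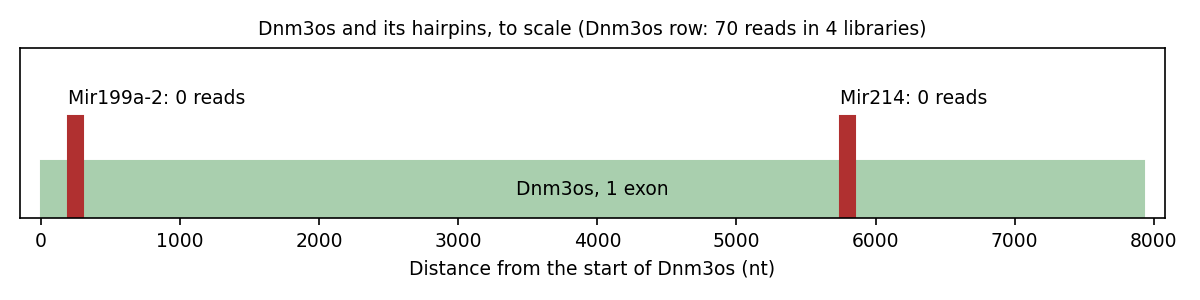
Dnm3os is drawn to scale in nt from its start, with the hairpins of Mir199a-2 and Mir214 as dark bars. Both hairpins, at 191 and 5745 nt, lie in the single exon and have 0 reads, while the Dnm3os row has 70 reads over the 4 libraries.

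Hairpins that overlap an exon of another row were examined because of these zeros. If all reads that fall in the hairpins had been listed under Dnm3os, they would be among those 70. In the GENCODE vM21 annotation, 19 miRNA hairpins overlap an exon of a RefSeq-linked transcript of another gene that has a row in the table. Of these, 14 (73.7%), Mir199a-2 and Mir214 included, were listed at 0 in all libraries. Overlaps of any length and on either strand were counted, while Mir199a-2 and Mir214 lie wholly inside Dnm3os and on its strand. Another 81 hairpins overlap such an exon of a gene with no row in the table used here, and 54 of those (66.7%) were at 0. Whether those genes were in the annotation used for counting is not stated. Of 531 hairpins that overlap neither such an exon nor another miRNA row, 124 (23.4%) were at 0. The highest mean among the 19 was 51.2 TPM, for Mir369 in Mirg. Mir26a-2, which overlaps an exon of Ctdsp2, a gene not used here, averaged 1575 TPM. Whether reads of Mir214 and Mir199a-2 were set aside because 2 genes overlap there was not tested, so neither 0 shows that the miRNA was absent. For Mir199a-2, reads could also stand under Mir199a-1, which makes the same mature strands, whereas no other hairpin holds a miR-214 strand.

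Among long RNAs that host miRNAs, Dnm3os was in the middle by its TPM in these small RNA libraries. This need not be its place by full transcripts. Of 22 such hosts in a fixed list, 12 had a row, and with Dnm3os they ranged from a mean of 1.23 TPM for Rian, an imprinted host of small nucleolar RNAs and miRNAs, to 0 for Mir100hg. Dnm3os was in place 8 of 13 by mean TPM. Its neighbours Mir17hg, the host of the miR-17 cluster, and Mir22hg averaged 0.0105 ± 0.0142 and 0.00643 ± 0.00298 TPM (SD, n = 4). Within libraries, Dnm3os was above Mir22hg in each, narrowly in libraries 3 and 4. It was above Mir17hg in libraries 1 to 3. In library 4 Mir17hg had 0.0317 TPM and Dnm3os 0.00585 TPM. No test was made of these differences. Dnm3os was in place 5, 4, 4 and 9 in libraries 1 to 4. It was above 0 in all 4 libraries, as were 10.4% of the 1840 long non-coding RNA rows, and 91.1% of those rows had a lower mean TPM. Zeros for hairpins inside exons were also listed under other hosts of the list. They were 1 of 1 in H19 (Mir675), 2 of 2 in Meg3 (Mir770 and Mir1906-1), 2 of 2 in Mir124a-1hg (Mir124a-1 and Mir3078), 1 of 1 in Mir22hg (Mir22) and 1 of 3 in Mirg (Mir410).

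To place the miR-199 genes in the miRNA pool, each miRNA gene with a mean of at least 10 TPM was set against them within each library. By limma with an intercept only, on the difference of log2(TPM + 1), 146 of 169 genes (86.4%) differed from Mir199a-1 at an adjusted p under 0.05. Of the 169, 6 were higher (3.55%) and 140 lower (82.8%). The 6 higher genes were Mir10b and Mir10a of the Hox clusters, Mir99a, Mir99b, Mir26a-2 and Mir541 of the Dlk1-Dio3 imprinted cluster, each in 4 of 4 libraries. Mir10b exceeded Mir199a-1 by 3.23 ± 0.58 (SE, limma adjusted p = 3.29e-07) and Mir26a-2 by 1.23 ± 0.57 (SE, limma adjusted p = 0.0402). Without library 2, 3 genes were called higher. Against Mir199b, 93 of 169 genes (55%) differed, 30 higher (17.8%) and 63 lower (37.3%). limma takes nearly 1 common spread for all genes here and all differences share the same miR-199 gene, so the p-values are not independent and are too small for genes that vary much.

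In order of mean TPM, Mir199a-1 was in place 14 and Mir199b in place 62 of the miRNA genes. The 3 genes above Mir199a-1 were Mir5099, Mir9-3 and Mir335, and the 3 below were Mir100, Mir409 and Mir125b-1. Of these, 5 were not called different from it by limma, with differences (neighbour minus Mir199a-1, log2(TPM + 1)) of -0.40 (Mir125b-1) to 0.43 (Mir5099) and adjusted p of 0.493 to 0.909. Mir9-3, a neural miRNA gene, was called at -1.29 (limma adjusted p = 0.0441), but it was lower than Mir199a-1 in 3 of 4 libraries, with an SD of 2.87, and its mean TPM was higher, at 830 TPM, through 2861 TPM in library 3. The exact sign-flip permutation test gave p = 0.5 for this pair. The 3 genes on each side of Mir199b, Mir106b, Mir674 and Mir744 above and Mir92b, Mir30e and Mir140 below, were not called different from it (limma adjusted p of 0.489 to 0.996). Neighbours of both miR-199 genes were picked by their mean TPM in these same libraries. The lack of a call was thus favoured in advance and is no separate result. Mir199b averaged 127 ± 89.9 TPM, against 125 ± 79.4 TPM for Mir140, a miRNA of cartilage (SD, n = 4).

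**Figure D3:**
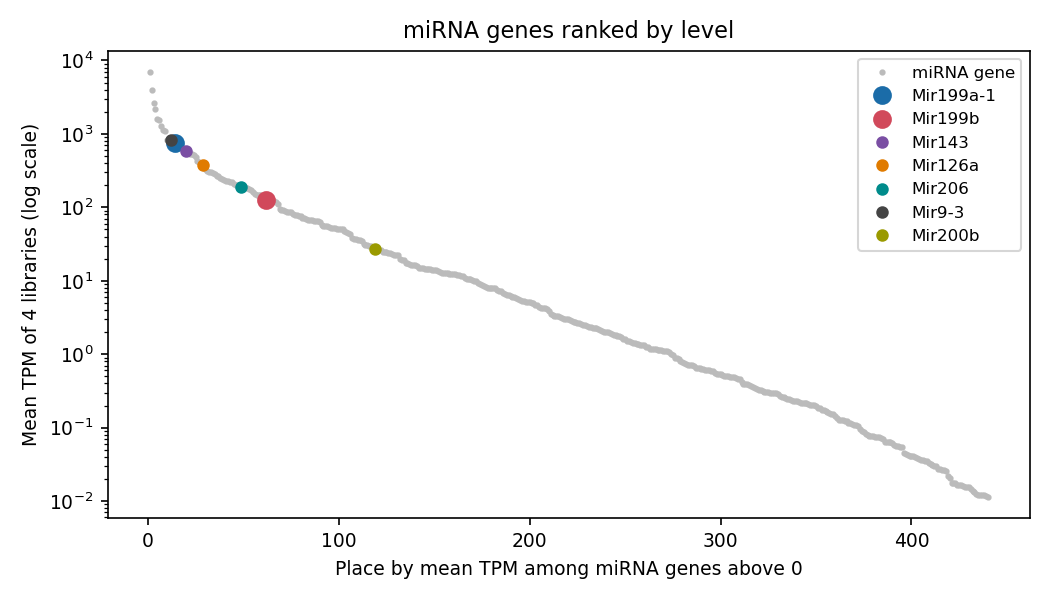
Mean TPM of 4 libraries on a log axis is plotted by place for each miRNA gene above 0. Mir199a-1 is in place 14 at 764 TPM and Mir199b in place 62 at 127 TPM, with the 5 marker genes used in the ratios shown for comparison.

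Against the mesenchyme and smooth muscle list, Mir199a-1 and the list's highest genes were close in mean TPM. Of the 10 list members tested, 7 were lower than Mir199a-1 by limma, where 82.8% of all 169 genes were, and Mir100, Mir125b-1 and Mir143 were not called. For Mir199b, those 3 were higher, where 17.8% of all genes were, 5 were lower, where 37.3% were, and Mir27b and Mir152 were not called. Mir143, known from smooth muscle, had 535, 1081, 560 and 196 TPM in libraries 1 to 4. Mir199a-1 exceeded it in libraries 1 to 3 and was below it in library 4, with a mean difference of 0.17 ± 0.76 on log2(TPM + 1) (SD, n = 4, exact sign-flip permutation p = 0.625), or -0.12 without library 1. Mir199b was below Mir143 in 4 of 4 libraries, by a mean of -2.48 ± 1.03 (SD, n = 4, exact sign-flip permutation p = 0.125).

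All 4 epithelial genes tested, Mir205, Mir200b, Mir192 and Mir200c, were lower than Mir199a-1 and lower than Mir199b by limma, where 82.8% and 37.3% of all 169 genes were. The other members of that list were below the minimum of 10 TPM. With nearly 1 common spread, such calls largely follow the mean TPM, here 12.4 to 32.0. The 5 mesenchymal list members lower than Mir199b averaged 12.0 to 26.2 TPM. Mir199a-1 exceeded Mir200b, of the miR-200 family that maintains epithelial identity, by 4.42 ± 1.30 on log2(TPM + 1) (SD, n = 4), in 4 of 4 libraries (exact sign-flip permutation p = 0.125). Mir199b exceeded Mir200b by 1.77 ± 1.42 in 3 of 4 libraries (exact sign-flip permutation p = 0.25), and in library 4 they were close, at 15.3 TPM for Mir199b and 15.9 TPM for Mir200b. Mir199a-1 exceeded Mir126a in libraries 1 to 3, by a mean over all 4 of 0.66 ± 1.35 (SD, n = 4, exact sign-flip permutation p = 0.375), while Mir199b was below Mir126a in 4 of 4, by -1.99 ± 1.53 (exact sign-flip permutation p = 0.125). Mir199a-1 exceeded Mir206, a skeletal muscle miRNA, in 3 of 4 libraries and was below it in library 4, at 112 TPM for Mir199a-1 and 216 TPM for Mir206. By mean TPM the leading genes of the lists were Mir100 (mesenchyme and smooth muscle), Mir205 (epithelium), Mir9-3 (neural), Mir206 (striated muscle) and Mir451a (blood, an erythroid miRNA), which averaged 4.14 TPM and was too low for the limma fit. Of the 11 ratios, 2 were positive and 2 negative in all 4 libraries, and the rest had mixed signs, with adjusted p of 0.344 to 0.625 over the 11 (exact sign-flip permutation).

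**Figure D4:**
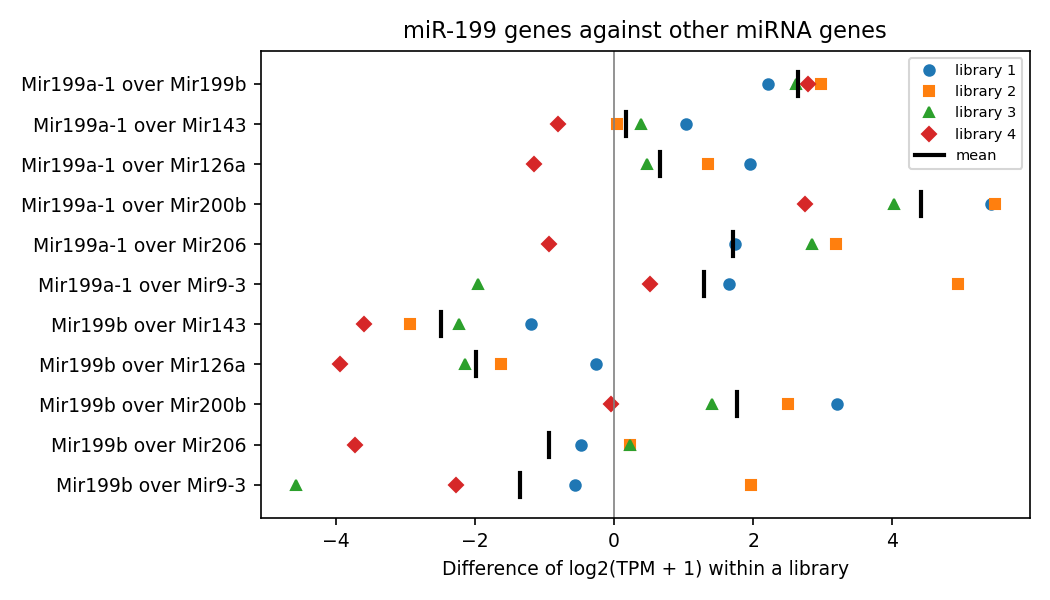
Each row is 1 ratio, with the difference of log2(TPM + 1) in each library as a coloured point and the mean as a black bar. The points for Mir199a-1 over Mir199b lie together between 2.22 and 2.97, while those against Mir9-3 spread over both sides of 0.

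The genes whose levels ran most like a miR-199 gene over the 4 libraries were sought by the SD of the within-library difference of log2(TPM + 1), which is small where a ratio stays constant. For Mir199a-1 the 5 genes with the smallest SD of 169 were Mir152 (0.24), Mir378a (0.29), Mir199b (0.32), Mir379 (0.33) and Mir125b-2 (0.34), against a median of 0.97. Mir152 had 96.2, 103, 74.8 and 13.6 TPM in libraries 1 to 4. For Mir199b they were Mir501 (0.26), Mir140 (0.32), Mir199a-1 (0.32), Mir125b-1 (0.41) and Mir378a (0.46), against a median of 1.16. Each miR-199 gene was thus in place 3 for the other, and these 2 genes share a mature strand whose reads cannot be assigned. By this measure Mir143 was in place 45 for Mir199a-1 and Mir126a in place 133. These SDs rest on 4 libraries that share their depth and scale across genes, and no test was made.

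**Figure D5:**
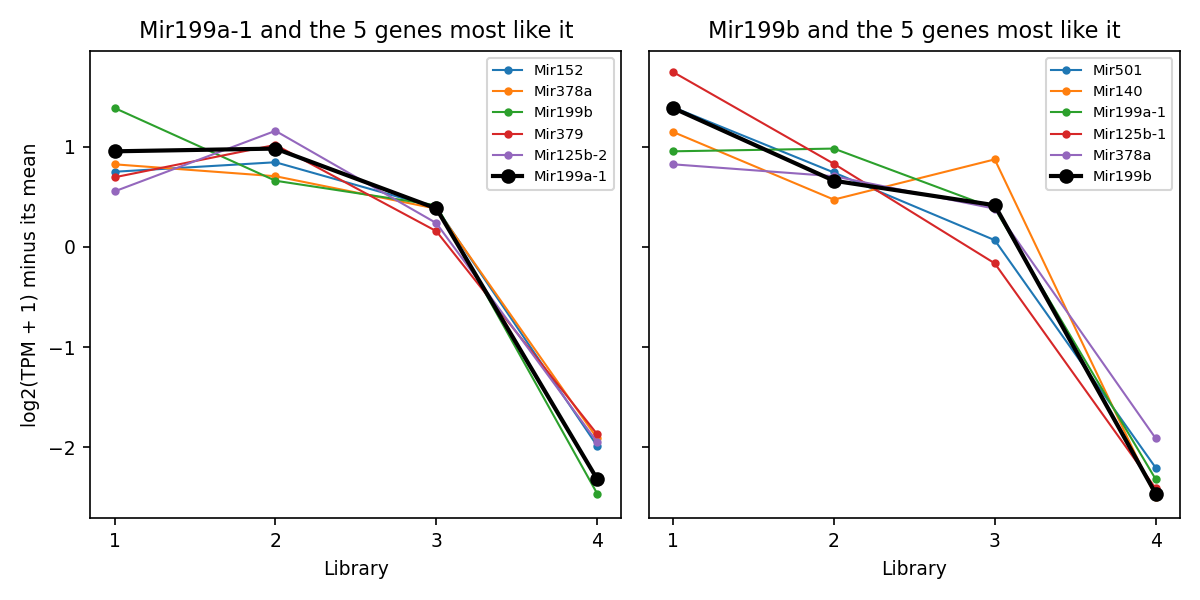
For Mir199a-1 (left) and Mir199b (right), log2(TPM + 1) minus its mean over the 4 libraries is drawn in black, each line joining the values of 1 gene, with the 5 genes that have the smallest SD of the difference. In both panels every line drawn is lowest in library 4, where Mir199a-1 had 112 TPM and Mir199b 15.3 TPM.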

How the data were processed

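The deposited table gives TPM made by the authors, with 1 row per gene ID and 1 column per library. Flow-sorted cells were lysed directly and their total RNA, small RNA included, was made into small RNA libraries read as 75 bp single reads, per the labels' protocols. The submitters' processing notes name mm10 (GRCm38) and limma. The aligner, counter, annotation and handling of reads with several matches or overlapping genes are stated in none of the sources used. Rows are precursor genes, so 5p and 3p strands are not separate. IDs were joined to RefSeq GRCm38.p6 (2541 of 2976 matched), and exons came from GENCODE vM21. Multiplied by gene length, 100% of nonzero miRNA values were whole multiples of what 1 read is worth in that library, within 0.01 reads, and these multiples are the reads given. Molecular identifiers are not mentioned, so intervals cover counting error only, and ligation preferences make levels of different miRNAs relative.

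Ratios used log2(TPM + 1) and exact sign-flip permutation tests. limma was fitted over miRNA genes with a mean of at least 10 TPM. It was also run on simulated normal data, with genes drawn independently and no shared library effect. That outcome is not used as support for the p-values given. The pseudocount understates differences of low genes. The members and lists were chosen with earlier results of these data known. Named genes are the 5 members, seed relatives, list leaders, the genes of the 11 ratios and 3 neighbours on each side. They also include the 5 most alike and the fixed hosts. The genes called higher than Mir199a-1, the miRNAs in host exons and the list members counted were named after their values were seen. So were Mir497 and Mir26a-2 in Ctdsp2. Python 3.11.15, pandas 2.3.3, scipy 1.17.1, Biopython 1.88, R 4.3.3 and limma 3.58.1 were used.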

Additional observations from a re-analysis of the deposited data

How the results depend on the processing

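Of 143 recomputed values, 135 kept their direction or, for levels and counts, stayed within 1 SD or 1.5 times of the value given. Some of these could not have failed. Leaving out 1 of 4 libraries cannot move a mean by 1 SD, and adding Mir199a-2, at 0, to Mir199a-1 can change no ratio. A kept direction also covers ratios that nearly vanished. Mir199b over Mir206 went from -0.94 to -0.0066 without library 4, and Mir199a-1 over Mir9-3 from 1.29 to 0.072 without library 2. Mir199b over Mir9-3 went from -1.36 to -0.29 without library 3. The other 8 values follow. The mean difference of Mir199a-1 over Mir143 turned to -0.12 without library 1, with a range of -0.12 to 0.49 over the libraries left out. The genes called higher than Mir199a-1 numbered 3 to 6 over the libraries left out, with 3 without library 2. The genes called lower than Mir199a-1 were 238 when the minimum mean was 1 TPM, 38 when it was 100 TPM and 605 when there was none, against 140 at 10 TPM. The genes called lower than Mir199b were 166, 0 and 535 under the same filters, against 63. These counts follow from how many low genes were tested, 272, 67 and 642. At the minimum of 100 TPM, limma called 31 genes higher and 0 lower than Mir199b. No gene on the lower side had an unadjusted limma p under 0.05. No paired analysis was possible because there is 1 group.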
